A study of Caenorhabditis elegans with 2 samples.

Results

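The 2 replicate ChIP-seq libraries of MDL-1 gave a pooled list of 30000 candidate regions. From these the authors kept an optimal list by a threshold on IDR (irreproducible discovery rate), a measure of reproducibility between lists. The regions kept were also those of highest signal in the pooled list, which became that optimal list. The regions described here come directly below that list. They were chosen by the signal in the pooled list, ranked from the highest, and they are as many as the optimal peaks, so they make up 3.72% of the pooled candidates. They are called the class below. The next class is the equally long run of ranks that follows it.

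Both libraries came from whole worms at the L4 larval stage, with both sexes pooled, of strain OP355 with the genotype unc-119(tm4063) III; wgIs355. The source label ties the insertion wgIs355 to mdl-1. Every animal carried the insertion and the unc-119 mutation, and there was 1 group and no untagged or mutant group. A note in the labels gives KLU-1 as the protein fused to GFP and FLAG, while the antibody and source labels give MDL-1, and which of them was tagged was not settled here. Read totals do not stand in peak lists, so the depth is unknown, and the intervals below, exact (Clopper-Pearson) at 95%, cover the counting of regions only. Whole animals mix all tissues, so a region bound in few cells and a region bound weakly in many cannot be told apart.

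MDL-1 is the worm member of the Mad family, DNA-binding proteins with a helix-loop-helix and a leucine zipper. Such proteins pair with a Max-like partner, in worms MXL-1, and the pair contacts the palindromic E-box CACGTG, the same site that Myc- or Mondo-type partners of Max-like proteins use. Mad-type factors are known mainly as repressors, and in worms mdl-1 has been studied for its part in lifespan downstream of insulin signalling.

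Since signal chose the members, their signals are given only as a description. They ran from 34.02 to 48.2 with a median of 39.1, against a median of 72.2 in the optimal list and 30.6 in the next class. All members were 396 bp wide, with the summit 198 bp into the interval. The deposited −log10 q-value ran from 1.40 to 2.94 in the class (median 2.03), against at least 2.86 in the optimal list. At the upper edge the members nearest to C03A3.2 (signal 48.187), egl-27 (48.176) and cri-1 (48.165) stood just inside, and the peaks nearest to srlf-7 (48.252), T08G5.3 (48.241) and aagr-2 (48.234) just outside. At the lower edge the members nearest to sca-1, anc-1 and C17G10.6 (34.02 each) stood just inside, and the candidates nearest to gly-5 (34.004), chd-3 (33.999) and W07E11.1 (33.989) just outside. No gap in signal separated the class from its neighbours at either edge.

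The E-box and related sequences are shown first for a selection of high-ranked members in promoter windows, with no annotated exon in the bases shown. A promoter window covered the 1000 bp before and the 200 bp after any annotated 5' end of a protein-coding gene. Each line gives the 101 bp centred on the summit, on the plus strand of the reference assembly WBcel235 (ce11, RefSeq). The first set shows the canonical E-box CACGTG, in capitals. These are the windows at W07E11.1 (chrX:10084325-10084425), between the divergent genes cdf-1 and glr-8 (chrX:6505824-6505924), at pcyt-1 (chrX:7578369-7578469), sqv-8 (chrII:9647303-9647403) and jmjd-3.1 (chrX:8570089-8570189), and between F58B3.6 and mars-1 (chrIV:11636434-11636534).
W07E11.1: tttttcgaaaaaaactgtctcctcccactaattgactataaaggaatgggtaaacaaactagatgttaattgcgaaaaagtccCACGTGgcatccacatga
glr-8: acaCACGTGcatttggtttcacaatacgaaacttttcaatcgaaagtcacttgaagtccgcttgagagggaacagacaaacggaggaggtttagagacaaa
pcyt-1: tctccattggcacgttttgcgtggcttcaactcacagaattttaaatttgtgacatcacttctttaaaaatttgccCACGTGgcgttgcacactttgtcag
sqv-8: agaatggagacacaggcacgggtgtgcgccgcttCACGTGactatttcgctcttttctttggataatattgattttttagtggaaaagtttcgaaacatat
jmjd-3.1: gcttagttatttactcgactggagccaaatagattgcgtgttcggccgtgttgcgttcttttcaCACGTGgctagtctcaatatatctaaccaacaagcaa
mars-1: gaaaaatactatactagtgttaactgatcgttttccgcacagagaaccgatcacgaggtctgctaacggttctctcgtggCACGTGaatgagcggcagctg

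The second set shows the E-box variant CACGCG or the GA repeat GAGAGA, again in capitals, where a repeat on the minus strand reads TCTCTC. These are the windows at rme-4 (chrX:10377772-10377872) and between F20D12.12 and czw-1 (chrIV:7946991-7947091) for the variant, and at nhr-237 (chrV:1627414-1627514) and mlk-1 (chrV:5064941-5065041) for the repeat.
rme-4: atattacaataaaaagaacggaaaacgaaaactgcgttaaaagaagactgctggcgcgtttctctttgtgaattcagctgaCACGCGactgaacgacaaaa
czw-1: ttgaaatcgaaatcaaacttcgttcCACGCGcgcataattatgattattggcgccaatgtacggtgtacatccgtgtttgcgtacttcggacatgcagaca
nhr-237: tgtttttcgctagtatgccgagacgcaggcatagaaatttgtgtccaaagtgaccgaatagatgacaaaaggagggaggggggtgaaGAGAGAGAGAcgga
mlk-1: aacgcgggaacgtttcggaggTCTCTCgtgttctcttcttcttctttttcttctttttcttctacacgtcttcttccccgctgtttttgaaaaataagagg

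The E-box stood off centre in these windows. Its first base lay 47 bp left of the summit on the plus strand at cdf-1 and glr-8 and 16 bp left at sqv-8. It lay 14 bp right of the summit at jmjd-3.1, 26 bp right at pcyt-1, 30 bp right at mars-1 and 33 bp right at W07E11.1. These genes serve unlike roles. cdf-1 encodes a zinc transporter of the cation diffusion facilitator family, pcyt-1 the enzyme that sets the pace of phosphatidylcholine synthesis, sqv-8 a glucuronosyltransferase of glycosaminoglycan synthesis, jmjd-3.1 a histone H3K27 demethylase and mars-1 methionyl-tRNA synthetase. The member at pcyt-1 ranked 1094 in replicate 1 and 1633 in replicate 2, the member at jmjd-3.1 ranked 1432 and 1212, and that at mars-1 ranked 1358 and 947. The member at sqv-8 was less even, at rank 3233 in replicate 1 and 532 in replicate 2. None of the genes of this first set had an optimal summit in its promoter window.

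The class held the E-box less often than the optimal list. CACGTG lay within 50 bp of the summit in 100 members (8.97%, interval 7.36% to 10.8%), against 214 optimal peaks (19.2%) and 73 regions of the next class (6.55%). Over all pooled candidates the share was 3.57%. The difference from the optimal list passed Fisher's exact test (two-sided, adjusted p = 4.3e-11), and that from the next class did not (adjusted p = 0.0743). Adjustment was by Benjamini-Hochberg over 34 tests of 17 region properties, and neighbouring regions are not independent. The E-box lay a median of 21.5 bp from the summit in the class, against 17.5 bp in the optimal list and 22.5 bp in the next class. It was also more frequent at the summits than beside them: windows 500 bp downstream held it in 19 members (1.70%), which is 5.26 times fewer (exact McNemar test, adjusted p = 9.1e-14). Other sequences also differed between summits and flanks, and the flanks were lower in GC content, as given below.

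The shares of the GA repeat and the E-box variant also lay between those of the optimal list and the next class. GAGAGA was found in 250 members (22.4%), against 407 optimal peaks (36.5%) and 199 regions of the next class (17.8%), with 8.71% over all candidates. Adjusted p was 6.0e-12 against the optimal list and 0.0255 against the next class (Fisher's exact test). CACGCG was found in 78 members (6.996%), against 10.3% of optimal peaks and 42 regions of the next class (3.77%), with 1.92% over all candidates. Adjusted p was 0.0224 against the optimal list and 0.00645 against the next class. The flanks held GAGAGA in 61 members and CACGCG in 20, and both differences passed the exact McNemar test (adjusted p = 3.0e-29 and 6.2e-09). With at least 1 of the 3 sequences there were 396 members (35.5%), against 623 optimal peaks (55.9%) and 291 regions of the next class (26.1%), and 16 members held both CACGTG and GAGAGA. For the E-box variant the difference from the optimal list did not pass when it was sought only within 25 bp of the summit (ratio 0.754, adjusted p = 0.281, Fisher's exact test) or over the members above the middle of the class (0.853, adjusted p = 0.48). Without replicate 1, the groups were taken anew at the same ranks of replicate 2's own list. There the CACGCG difference between the ranks of the class and the next ranks did not pass (ratio 1.70, adjusted p = 0.0822, Fisher's exact test).

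Of the AT-rich sequences, TTTTTT and the GATA-type TGATAA were more frequent in the class than in the optimal list, at shares nearer to those of the candidates as a whole. TTTTTT lay near 403 member summits (36.1%), against 216 optimal summits (19.4%, adjusted p = 3.0e-17, Fisher's exact test) and 447 of the next class (40.1%, adjusted p = 0.103), with 49.1% over all candidates. TGATAA lay near 10.7% of members, against 79 optimal peaks (7.09%, Fisher's exact test, adjusted p = 0.0153), 10.9% of the next class and 10.1% of all candidates. The flanks of the members held it in 10.04% (exact McNemar test, adjusted p = 0.681). TATAAA lay near 88 members (7.89%), against 64 optimal peaks (5.74%, adjusted p = 0.0948, Fisher's exact test) and 134 regions of the next class (adjusted p = 0.00801). Of the other sequences, GCGTGG lay near 51 members (4.57%) and passed only against the next class, with 28 regions (2.51%, adjusted p = 0.0283, Fisher's exact test). GGGCGG near 55 members, CAGCTG near 34 members and the sequence CATATG near 18 members passed against neither the optimal list nor the next class. Against the flanks, GGGCGG (in 16 flanks, adjusted p = 9.4e-06, exact McNemar test) and GCGTGG (in 18, adjusted p = 0.000175) were more frequent at summits. TATAAA (in 133 flanks, adjusted p = 0.0034, exact McNemar test) and TTTTTT (in 469, adjusted p = 0.0069) were less frequent at summits, and CAGCTG and CATATG did not pass. The base content of the windows followed the order of the rank classes. GC content averaged 42.3% ± 9.70 in the class, against 48.4% ± 8.17 in the optimal list and 38.5% ± 10.1 in the next class (SD over regions). In the flanks it was 35.8%, against 35.6% and 35.2%. Within windows of similar GC content the E-box share of the class was below that of the optimal list in all 3 strata. Below 40% GC it stood in 35 of 460 member windows (7.61%), against 35 of 180 optimal windows (19.4%). From 40% to 50% GC it stood in 55 of 404 member windows (13.6%), against 93 of 453 optimal windows (20.5%), and above that in 10 of 251 member windows (3.98%), against 86 of 482 optimal windows (17.8%). In the next class the E-box shares were 5.03%, 8.01% and 9.26% from low to high GC, so the class lay below the next class at high GC. For CACGCG the class gave 3.26%, 8.42% and 11.6%, against 2.78%, 7.06% and 16.18% in the optimal list, so the class was the lower only at high GC. For GAGAGA the class gave 12.2%, 30.2% and 28.7%, against 27.8%, 36.2% and 40.04% in the optimal list and 9.25%, 28.5% and 28.4% in the next class. Above 40% GC the GAGAGA shares of the class and the next class thus lay within 2 percentage points of each other. These strata were chosen after the data were seen and were not tested.

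Summits were intergenic, here meaning outside protein-coding genes, in 701 members (62.9%, interval 59.96% to 65.7%), against 725 optimal peaks (65.0%) and 612 regions of the next class (54.9%), with 44.3% over all candidates. The difference from the optimal list did not pass (adjusted p = 0.422, Fisher's exact test) and that from the next class did (adjusted p = 0.00128). Both calls changed with the replicate list used. Against the optimal list the ratio of shares was 0.876 without replicate 1 (adjusted p = 0.00095, Fisher's exact test) and 0.926 without replicate 2 (adjusted p = 0.0403), so in each list alone the class lay below. Against the next class it was 1.07 without replicate 1 (adjusted p = 0.226, Fisher's exact test). Intronic summits made up 300 members (26.9%), against 311 optimal peaks (27.9%) and 324 regions of the next class (29.1%), and neither difference passed. Summits in 3' UTRs and coding exons were more frequent than in the optimal list and less frequent than in the next class. In 3' UTRs lay 38 members (3.41%), against 18 optimal peaks (1.61%, adjusted p = 0.027, Fisher's exact test) and 63 regions of the next class (5.65%, adjusted p = 0.0301), with 4.79% over all candidates. In coding exons lay 36 members (3.23%), against 17 optimal peaks (1.52%, adjusted p = 0.0283, Fisher's exact test) and 64 regions of the next class (5.74%, adjusted p = 0.0207), with 11.9% over all candidates. In 5' UTRs lay 40 members (3.59%), against 44 optimal peaks (3.95%) and 52 regions of the next class (4.66%), and neither difference passed (adjusted p = 0.81 and 0.373, Fisher's exact test). The excess of coding exons over the optimal list did not pass over the stronger members alone, those above the middle of the class.

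**Figure D1:**
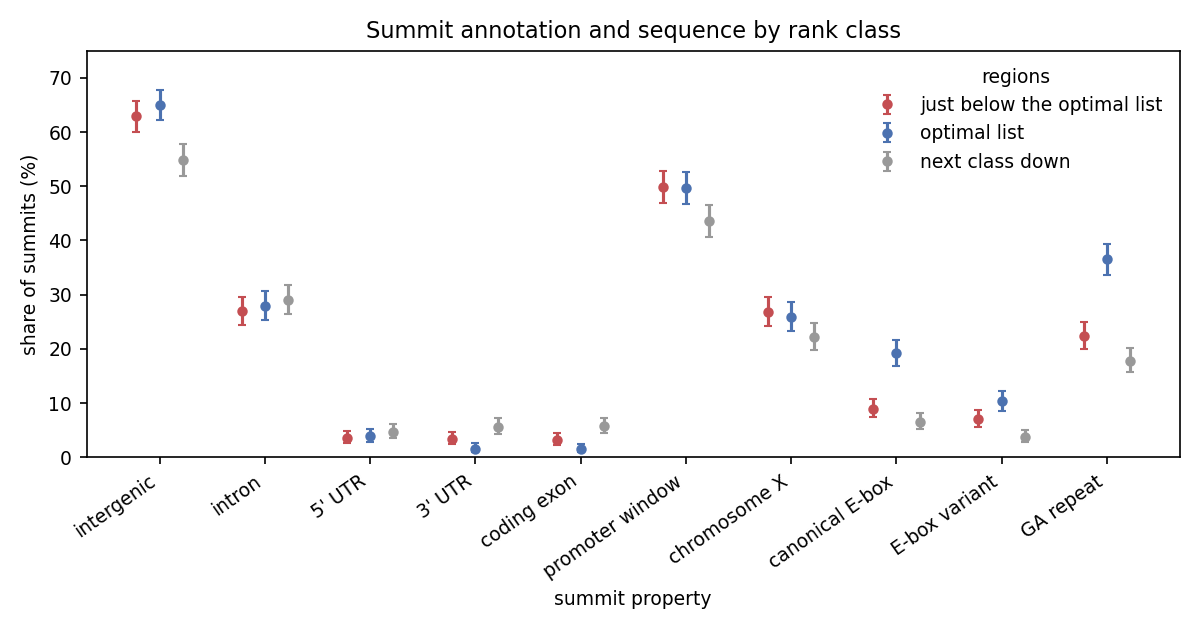
Shares of summits (vertical axis, percent) with each annotation or sequence property, for the class just below the optimal list, the optimal list and the next class down; points are shares and bars their exact 95% intervals over regions. The class sits beside the optimal list for intergenic summits (62.9% and 65.0%) and promoter windows (49.9% and 49.7%), and well below it for the canonical E-box (8.97% and 19.2%) and the GA repeat (22.4% and 36.5%).

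Promoter windows held 556 member summits (49.9%, interval 46.9% to 52.8%) and 559 members lay outside them. The optimal list had 554 summits in such windows (49.7%) and the next class 486 (43.6%), with 32.7% over all candidates and 26.2% of the nuclear genome covered by the windows. The class did not differ from the optimal list beyond counting error (adjusted p = 0.966) and exceeded the next class (adjusted p = 0.0153, Fisher's exact test). That excess was lost with longer promoter windows, and when the groups were taken anew at the same ranks of either replicate's own list. In replicate 2's list, regions at the ranks of the class had 43.1%, against 49.1% at the ranks of the optimal list (adjusted p = 0.019, Fisher's exact test). Summits lay a median of 798 bp from the nearest 5' end, against 858 bp in the optimal list and 924 bp in the next class, and 796 members (71.4%) lay upstream of it. Only 59 members (5.29%) were over 5000 bp away. Chromosome X held 299 members (26.8%), against 289 optimal peaks (25.9%, Fisher's exact test, adjusted p = 0.78) and 248 regions of the next class (22.2%, adjusted p = 0.0301). Over all candidates the share was 21.2%, while X makes up 17.7% of the nuclear genome. Within the class, promoter windows held 59.9% of the members on V and 45.2% of those on X, and the E-box stood in 12.1% of those on V and 7.02% of those on X, differences that were not tested.

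A small set of members stood on the shoulders of stronger peaks. An optimal summit lay within 400 bp of 40 members (3.59%), and each of these 40 overlapped an optimal interval. Their gaps were narrowly set, from 199 to 296 bp with a median of 202 bp, close to the 198 bp from a member's edge to its summit. The next class had 40 such regions too. Within 1000 bp of an optimal summit lay 96 members (8.61%), against 78 regions of the next class (6.996%), and the other 1019 members lay farther away. The median distance was 14841 bp in the class and 23306 bp in the next class. Clustering within the class was limited, as 87 members had another member within 1000 bp.

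**Figure D2:**
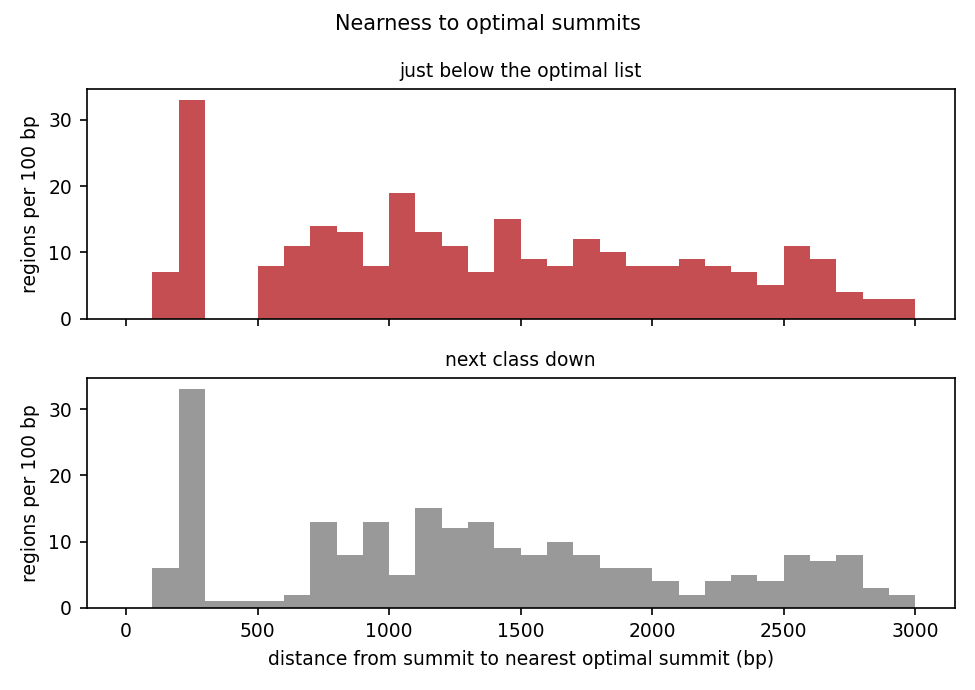
Number of regions per 100 bp (vertical axis) by the distance in bp from their summit to the nearest optimal summit (horizontal axis), for the class just below the optimal list (upper panel) and the next class down (lower panel). Both panels show an isolated column near 200 bp, which in the class holds 40 regions 199 to 296 bp from an optimal summit, and a broad spread beyond 500 bp.

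The optimal list left most protein-coding genes unreached, and most genes of the class were among those. The class had a summit in the promoter window of 645 protein-coding genes, 3.23% of 19973, against 635 genes (3.18%) for the optimal list and 558 for the next class. Of the 645 genes, 601 (93.2%, or 3.01% of all genes) had no optimal summit in their windows, and 44 were shared, which is 6.82% of the genes of the class and 6.93% of those of the optimal list. The next class shared 46 genes (8.24% of its genes) with the optimal list, and the optimal list reached 3.18% of all genes. The shared count moved with how genes were assigned: it was 218 of 961 genes (22.7%) with the single nearest 5' end, 120 of 932 (12.9%) with windows of 2000 bp upstream and 500 bp downstream, and 18 of 439 with windows of 500 bp upstream. Both lists together reached 1236 genes (6.19%). The next class added 475 further genes (85.1% of its 558). Of the member summits in windows, 448 lay in the window of 1 gene, 103 in those of 2 genes and 5 in more, and 22 genes held more than 1 member summit.

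The strongest members in promoter windows stood at genes of varied roles. The member at C03A3.2 (signal 48.2, rank 1314 in replicate 1 and 1408 in replicate 2) lay 290 bp upstream of its 5' end. The summit at egl-27, which encodes a component of the NuRD chromatin remodelling complex, lay 17 bp upstream in an intron (rank 1767 in replicate 1 and 999 in replicate 2). The summit at rae-1, an mRNA export factor of the nuclear pore, lay 122 bp upstream and held CACGCG, and that at vab-10, a spectraplakin that links the epidermis to muscle, lay 796 bp upstream with a GAGAGA. Between atm-1, the DNA damage kinase ATM, and F56C11.3 a member with CACGCG lay 371 bp and 221 bp upstream of the 5' ends. Its ranks were alike, 1384 in replicate 1 and 1263 in replicate 2.

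Further strong members differed in how evenly the replicates ranked them. The summit at mlk-1, a MAP kinase kinase kinase of the KGB-1 stress pathway, lay 180 bp upstream at rank 941 in replicate 1 and 471 in replicate 2. The summit at rme-4, a DENN-domain protein of yolk receptor endocytosis, lay 53 bp upstream at rank 3217 in replicate 1 and 343 in replicate 2. The summit between F20D12.12 and czw-1, the ZW10 protein of the kinetochore, went the other way, at rank 1763 in replicate 1 and 16130 in replicate 2. So even at the top of the class the replicates placed single regions far apart. The members at gpcp-1, nrde-4 (nuclear RNA interference), ubc-7 (ubiquitin conjugation), K04C1.2, F46C8.8 and Y71F9AL.8 completed the top with otub-2, act-4, nhr-3, nhr-237, cox-6A, mxl-3, zfp-3, pab-2, sma-9 and btbd-10, and their signals ran from 47.02 to 48.1.

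Some newly reached genes already had an optimal peak beyond their promoter window. Of the 601 genes, 53 (8.82%) were the nearest gene of an optimal summit that lay in no promoter window, with a median of 2102 bp between both summits, against 36 of 512 (7.03%) for the genes of the next class that the optimal list lacked. The share was 1.90% over all protein-coding genes not reached by the optimal list. At egl-9, the prolyl hydroxylase that acts on HIF-1, the member (signal 37.8) lay 854 bp upstream in an intron and the optimal summit (signal 491) 1785 bp upstream, with 5747 bp between both because the gene has several 5' ends. At atgl-1, a triglyceride lipase, the member (signal 42.2) lay 455 bp upstream at rank 1900 in replicate 1 and 1824 in replicate 2, and the optimal summit (signal 290.4) 1807 bp upstream. At sup-26, an RNA-binding protein, the member (signal 35.7) lay 102 bp upstream and the optimal summit (signal 276) 1956 bp upstream. The genes egl-9 and sup-26 were chosen for naming after their values were seen.

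The 44 shared genes fell into those with a shoulder and those with a separate second region. The summit gap between member and optimal peak had a median of 689 bp and ran from 199 to 11806 bp. It was under 396 bp, the width of a member, in 17 genes and over 1000 bp in 19. Measured to the nearest 5' end of the gene, the member summit lay farther than the optimal summit in 24 genes and nearer in 20. These distances could refer to different 5' ends. At srh-2 and mnk-1 the summits compared were also not the pair that gave the gap. The 10 shared genes of highest member signal included both kinds. At zfp-3, zfp-1, myrf-2, nhl-2 with tag-340, and icl-1 with srh-2 the gap was 199 to 206 bp. At zfp-3, for one, the member (signal 47.8) lay 475 bp upstream and the optimal summit (signal 211) 275 bp upstream.

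Separate regions stood at pab-2, sma-9 and btbd-10. At pab-2, a poly(A)-binding protein, the member (signal 47.5) lay 551 bp upstream in a 5' UTR and the optimal summit (signal 94.4) was 1230 bp away. At sma-9, the Schnurri-type cofactor of the body size pathway, the member (signal 47.4) lay 834 bp upstream at an intronic 5' end, and the optimal summit in its windows (signal 60.6) was 3851 bp away, while the nearest optimal summit of any lay at 972 bp. At hlh-30, the TFEB homologue that controls lysosome and autophagy genes, the member (signal 43.8) lay 239 bp upstream of one 5' end and the optimal summit (signal 123.02) 314 bp upstream of another, 9158 bp away. The nearest optimal summit of any lay 802 bp from this member. Its ranks were far apart, 11707 in replicate 1 and 1681 in replicate 2.

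Gene lists were counted against the 3.23% of all protein-coding genes reached, with no test of the lists. A pooled candidate of any rank lay in the promoter windows of 40.03% of all protein-coding genes. That share was 81.25% for cytosolic ribosomal protein genes, 73.9% for lipid, 72.4% for autophagy, 70.2% for respiratory chain and 66.2% for chaperone genes. It fell below 40.03% in the histone, homeobox, germline, pharynx and neuron lists. A share above 3.23% alone thus does not mark a list as particular to the class. Of 31 lists, 25 had at least 1 newly reached gene. Among the genes of protein synthesis, the class reached 17 of 80 cytosolic ribosomal protein genes (21.2%), against 12 (15%) for the optimal list and 6 for the next class, and 16 of the 17 were new. The summit shared by the divergent genes rpl-39 and rps-30 (signal 46.3) lay 346 bp and 153 bp upstream, that at rpl-12 (46.01) 10 bp upstream and that at rpl-7 (44.2) 199 bp upstream. At the shared gene rpl-1 the member (38.7) stood 211 bp from the optimal summit. Of 32 tRNA synthetase genes the class reached 4, against 0 for the optimal list and 0 for the next class. They were aars-1 (signal 46.3, rank 1304 in replicate 1 and 1054 in replicate 2), mars-1 (45.4), ears-2 (42.7) and hars-1 (35.7). The summit at mars-1 lay 997 bp upstream of its 5' end, at the edge of the window, and 164 bp upstream of F58B3.6. The member at hars-1 matched no region of replicate 1 but rank 581 in replicate 2. Translation factors were reached in 4 of 38 genes, against 4 for the optimal list, and were eef-1B.1, eif-3.G, eif-3.E and eef-2. Mitochondrial ribosomal proteins were reached in 1 of 66 genes (mrpl-55), against 1 for the optimal list.

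Genes of protein folding and energy metabolism were reached in higher numbers by the class than by the optimal list in 4 of 5 lists. Chaperone genes were reached in 11 of 68, all new, against 5 for the optimal list and 9 for the next class. The strongest were hsp-3 (signal 46.2, 44 bp upstream), the BiP-type chaperone of the endoplasmic reticulum, dnj-19 (45.4), hsp-110 (44.2) and the chaperonin subunit cct-7 (43.3). Lipid genes were reached in 7 of 46, all new, against 4 for the optimal list and 1 for the next class, and included pcyt-1 and cept-1 of phospholipid synthesis, the desaturase fat-3 and the lipase atgl-1. The member at fat-3 (signal 44.4) ranked 673 in replicate 1 and 6671 in replicate 2, while that at cept-1 (42.7) ranked 2009 and 1122. Respiratory chain genes were reached in 6 of 47, against 2 for the optimal list and 4 for the next class. They included the cytochrome oxidase genes cox-6A (47.2), cox-6B (39.7) and cox-6C (39.4). Glycolysis and gluconeogenesis genes were reached in 3 of 22, namely gpd-2, pck-2 and aldo-2, against 2 for the optimal list and 6 for the next class. Vacuolar ATPase genes were reached in 3 of 21 (unc-32, vha-9 and vha-8), against 3 for the optimal list.

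Regulators were counted next. The class reached 5 of 27 longevity and stress transcription factors, against 9 for the optimal list and 5 for the next class. New among them were the Nrf-type factor skn-1 (signal 39.9, rank 5991 in replicate 1 and 737 in replicate 2), the Mediator subunit mdt-15 (37.9, rank 1693 and 26061) and the nuclear receptor nhr-25 (35.04, rank 3984 and 1436). A list of 6 genes drawn up for the Myc-Mondo-Mad network also held hlh-30, which as the TFEB homologue is not a Myc, Mondo, Mad or Max-like gene. Besides hlh-30 the class reached mxl-3 of this list, a Max-like factor. Its member (47.7) lay 122 bp upstream at rank 1535 in replicate 1 and 3343 in replicate 2. Nuclear hormone receptor genes were reached in 16 of 274, against 16 for the optimal list, and 15 of them were new. Insulin and TOR genes were reached in 3 of 31, the RagC GTPase ragc-1, the folliculin flcn-1 and the AMP kinase subunit aakb-2, against 4 for the optimal list. Immune signalling genes were reached in 6 of 31, against 6, and tir-1, nlp-31 and vhp-1 were new. Of the 31 lists, autophagy lay furthest below the optimal list in percentage points: 0 of 29 genes were reached by the class, against 6 by the optimal list and 1 by the next class.

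The remaining lists were small in number. Basic helix-loop-helix genes were reached in 4 of 41, against 3 for the optimal list, with the ARNT-type factor aha-1 (signal 46.4) and mxl-3 new and hlh-30 and hlh-11 shared. Heterochronic and molting genes were reached in 3 of 20 (lin-28, nhr-25 and ain-1), against 3, and genes of Wnt, TGF-beta and Notch signalling in 3 of 34 (daf-1, daf-5 and lit-1), against 3. Endocytosis genes were reached in 2 of 24 (rab-11.1 and apa-2), against 5, cell cycle genes in 2 of 50 (cdc-14 and cdk-5), against 3, proteasome genes in 1 of 33 (rpn-3), against 2, and lysosome genes in 1 of 36 (lmp-1), against 2 for the optimal list. Some summits counted in more than 1 list. The summit at rab-11.1 was that at rpl-7, the summit at rpn-3 that at hsp-110, and the summit at dnj-19 that at nhr-47.

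Tissue lists were too small for counts of 0 or 1 gene to be told from the 3.23% background. The optimal list reached 0 intestine, 0 pharynx, 0 germline, 1 neuron and 1 homeobox gene. The class reached 0 of 19 intestine, 0 of 15 pharynx, 0 of 36 neuron and 0 of 45 germline genes, and 0 of 92 homeobox genes. It reached 1 of 23 body wall muscle genes (act-4) and 1 of 21 hypodermis genes (vab-10). Cuticle collagen genes were reached in 4 of 175 (2.29%), namely col-97, col-166, col-38 and col-63, against 0 for the optimal list and 7 for the next class. Their signals, from 34.4 to 36.8, stood in the lower part of the class. Histone genes were reached in 3 of 82, of which his-24 and hil-2 encode linker histones and his-71 a histone H3.3, against 4 for the optimal list.

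**Figure D3:**
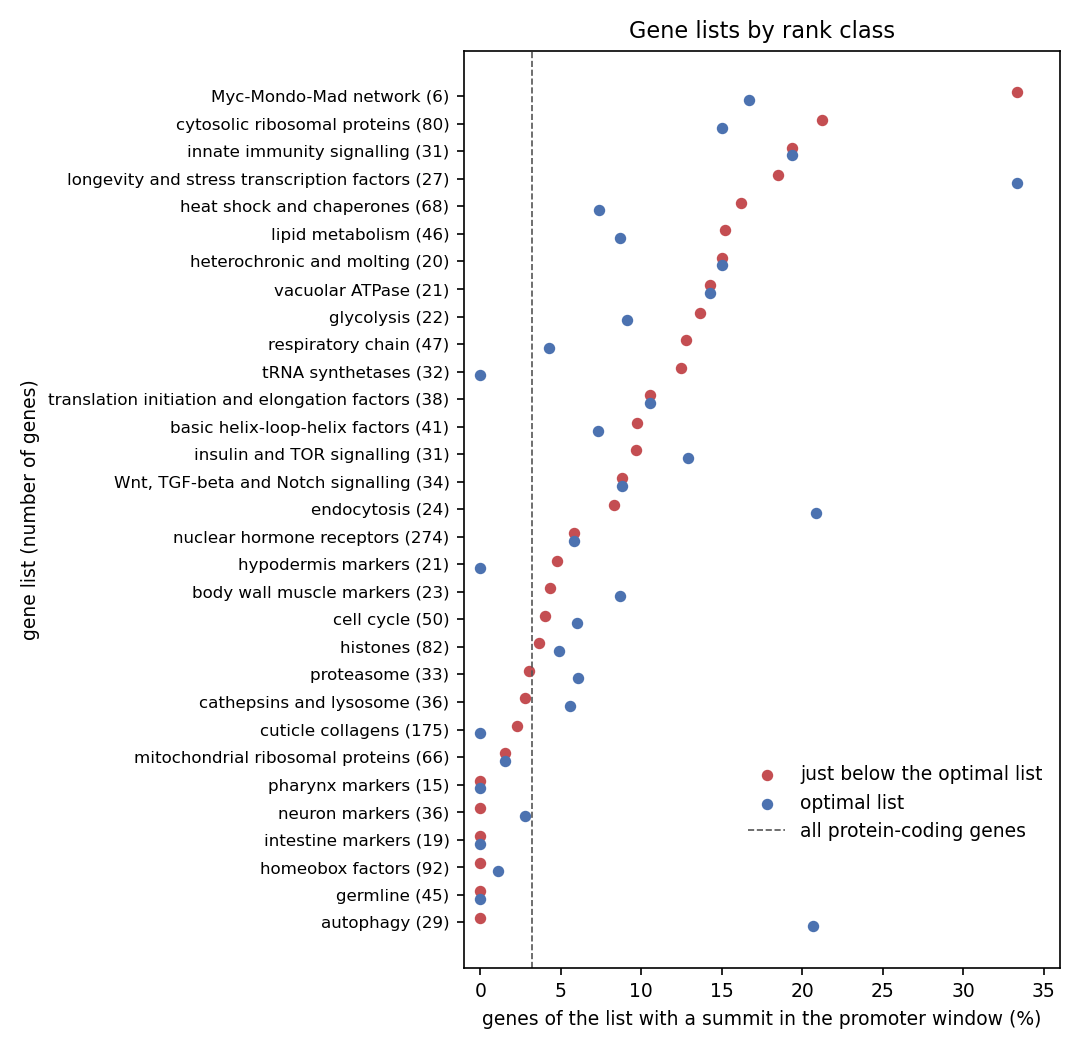
Share of the genes of each list with a summit in a promoter window (horizontal axis, percent), for the class just below the optimal list and for the optimal list; the dashed line is the 3.23% of all protein-coding genes reached by the class. Ribosomal proteins (21.2% against 15%) and tRNA synthetases (4 of 32 genes against 0) lie further right in the class, and autophagy genes (0 of 29 against 6) further left.

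Small RNA genes near the summits were counted separately. A tRNA gene lay within 200 bp of 32 member summits (2.87%), against 29 optimal summits (2.60%) and 18 of the next class (1.61%), with 0.91% over all candidates. Beside snoRNA genes lay 10 members (0.897%), against 27 optimal peaks (2.42%) and 12 regions of the next class (1.08%), with 0.43% over all candidates. Beside miRNA genes lay 5 members (0.448%), against 6 optimal peaks (0.538%) and 0.217% over all candidates, and mir-49, mir-79, mir-53 and mir-2214 were among them, named after their values were seen. None of these counts was tested.

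The genes mdl-1 and mxl-1 were not reached by the class. In the 20 kb around mdl-1 lay 3 members, with signals of 37.5, 37.2 and 34.7, and none was in its promoter window, while 7 optimal peaks lay in the same reach. The part of the inserted transgene in these signals was not tested. No member lay within 20 kb of mxl-1, klu-1 or unc-119.

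The replicates each found most members, but seldom at like ranks. Of the class, 1111 members (99.6%) overlapped by at least 1 bp a region among replicate 1's candidates and 1068 (95.8%) one among those of replicate 2, and 1065 (95.5%) were in both. The pooled signal that chose the members comes from these same libraries, so this agreement is a description. Median ranks were 1828 in replicate 1 (quartiles 1302 and 2826.5) and 2451.5 in replicate 2 (quartiles 1313.5 and 5586.5). The optimal list had median ranks of 540 and 570, and the next class 3190 and 4338. The spread in replicate 2 was thus the wider for the class.

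Agreement was then counted over the top of each replicate list, taken as long as the optimal list and the class together. In the top of both replicates were 226 members (20.3%, interval 17.9% to 22.8%), against 984 optimal peaks (88.3%) and 63 regions of the next class (5.65%). In the top of replicate 1 only were 470 members (42.2%), in that of replicate 2 only 271 (24.3%) and in neither 148 (13.3%). With a top only as long as the optimal list, 36 members (3.23%) were in both, against 717 optimal peaks (64.3%). Across the 1065 members in both lists the signals of the replicates had a Spearman's rho of -0.33 and a Pearson's r of -0.07 on the log2 scale, against 0.59 and 0.66 for the optimal list. A narrow band of pooled signal leaves a member that is high in one replicate to be low in the other. Regions also share libraries, so these values describe the choice of members. The optimal list was itself kept by reproducibility between lists from these same libraries, and the class is what ranked directly below it. The higher counts and correlations of the optimal list, here and below, are thus in part fixed by that choice.

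**Figure D4:**
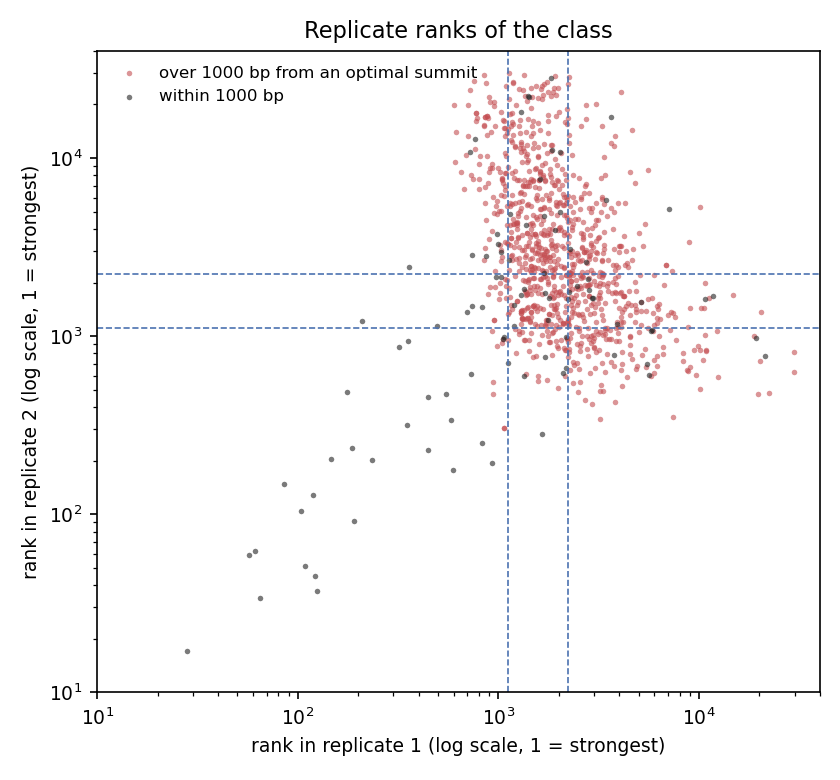
Rank of each member in replicate 1 (horizontal axis) and replicate 2 (vertical axis), both on log scales with 1 as the strongest, for members farther than 1000 bp from an optimal summit and those within 1000 bp; dashed lines mark the length of the optimal list and double that length. Most members form an angled cloud with a median rank of 1828 in replicate 1 and 2451.5 in replicate 2. Of the 36 members within the length of the optimal list in both replicates, 28 are within 1000 bp of an optimal summit. Of the 226 within double that length in both, 49 are.

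The members of best rank in both replicates were shoulders. Of the 36 members in the shorter top of both lists, 28 lay within 1000 bp of an optimal summit. The 6 with the best worse rank were those nearest to C30E1.4 (rank 28 in replicate 1 and 17 in replicate 2), zfp-1 (57 and 59), K02A6.3 (61 and 62), zfp-3 (65 and 34), tmem-184 (105 in replicate 2) and myrf-2 (109 and 51). Each stood 199 to 206 bp from an optimal summit, and the replicate regions they overlapped had their own summits 148 to 240 bp away from the member's. The regions matched by overlap were thus not centred on the member. Of the 40 members within 400 bp of an optimal summit, 37 matched a replicate 1 summit over 100 bp away and 36 a replicate 2 summit over 100 bp away. When summits had to lie within 100 bp, 101 members (9.06%) were in the longer top of both lists, against 884 optimal peaks (79.3%) and 7 regions of the next class (0.628%). Away from optimal summits, 177 of 1019 members (17.4%) were in the longer top of both lists by overlap.

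At the other end were members that 1 replicate carried. The member nearest to gpc-1 ranked 29827 in replicate 1 and 632 in replicate 2, that at otub-2, a deubiquitinase, 22224 and 480, and that at gldi-8 19763 and 476. The E-box member nearest to rpl-21, 3938 bp from its 5' end, ranked 29919 in replicate 1 and 813 in replicate 2. The opposite was seen at rbc-1 (757 in replicate 1 and 27140 in replicate 2) and at the member nearest to nhr-43 (850 and 29385). Each of these 6 lay over 1000 bp from any optimal summit.

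Sequence and gene content differed among the agreement groups, in counts that were not tested. GAGAGA stood in 28.3% of the members in the top of both replicates, 21.7% of those in replicate 1 only, 23.2% of those in replicate 2 only and 14.2% of those in neither. CACGTG stood in 8.41%, 9.57%, 10.3% and 5.41% of the same groups. The members in the top of both reached 125 genes, of which 99 (79.2%) were new, and those in neither reached 91 genes, of which 88 (96.7%) were new. The groups also differed in pooled signal, with medians of 43.1, 39.4, 38.6 and 35.9 in the same order. Of the members in the top of both, 49 lay within 1000 bp of an optimal summit. Members farther away shared 17 of 608 genes with the optimal list. The parts of signal and nearness in these differences were not tested. Promoter windows held 47.8% of the members in the top of both and 54.7% of those in neither.

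The class was not uniform from its top to its bottom. In 5 equal blocks of 223 members by pooled signal, the E-box stood in 12.1%, 10.8%, 8.52%, 8.97% and 4.48% of the members. GAGAGA stood in 27.4%, 27.4%, 21.5%, 16.6% and 19.3%, and intergenic summits made up 70.0%, 63.7%, 60.1%, 65.0% and 55.6%. Promoter windows varied less, from 47.1% to 55.2%. Members in the longer top of both replicates made up 43.5% of the first block and 8.52% of the last, which the choice by pooled signal in part fixes.

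**Figure D5:**
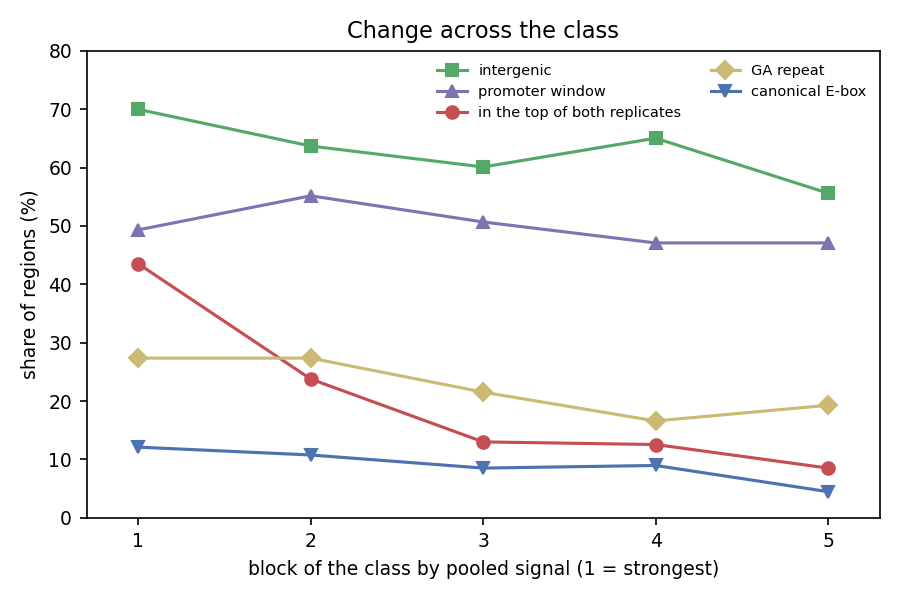
Share of members (vertical axis, percent) with each property in 5 equal blocks of the class ordered by pooled signal (horizontal axis, 1 the strongest). Members in the top of both replicates make up 43.5% of the first block and 8.52% of the last, the canonical E-box 12.1% and 4.48%, and promoter windows between 47.1% and 55.2%.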

How the data were processed

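Whole L4 worms of 1 strain were assayed by ChIP-seq in 2 biological replicates, and the deposited peak lists on ce11 were used, with those on ce10 for 1 alternative. Per the notes deposited beside each library, candidates were called per replicate and on pooled data, and the optimal list came from all 3. Which aligner and caller made the lists, and at which threshold, is not stated in the labels or headers. Control libraries and signal tracks were not used here. The signal of a region is the value the authors deposited for it, whose scale differs between lists, and served only for ranking inside 1 list. The −log10 q-value, also deposited, was only described. Relaxed lists hold background by construction, and fixed widths with adjoining intervals let 1 strong site yield several regions.

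Pooled ce11 regions were ranked by signal, and ranks 1116 to 2230 are the class, ranks 1 to 1115 the optimal list and ranks 2231 to 3345 the next class. The members, the 31 gene lists and the motifs were chosen with earlier results of these data known. Each ce11 region fitted within the chromosomes of the reference (WBcel235), annotated with Ensembl release 115, with its 19973 nuclear protein-coding genes. A summit took the first fitting of coding exon, 5' UTR, 3' UTR, intron and intergenic, from protein-coding genes only. Motifs were sought on both strands within 50 bp of summits. The 10 motifs, 5 features, promoter window and chromosome X were compared by Fisher's exact test, two-sided, and summits with windows 500 bp downstream by the exact McNemar test, each with Benjamini-Hochberg adjustment at 0.05. Regions are not replicates of a condition, and with 1 group no test between samples was made. The tools were scipy 1.17.1, pandas 2.3.3, numpy 2.4.6 and matplotlib 3.10.9 under Python 3.11.15, and the code was tested on simulated data.

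Named genes were those of the 25 highest members in promoter windows, up to 4 new and 2 shared genes of highest signal per list, the 10 shared genes of highest signal, unc-119, klu-1, mdl-1 and mxl-1, the members at the edges, the 6 best and 6 least even members across replicates, and the 10 highest promoter members with each motif set, of which some are shown. Further members of a list are named where few. Alternatives covered the member set, promoter and motif windows, flank, gene assignment, overlap rule, length of the top lists, genome build and leaving out each replicate. To leave out a replicate, the rank groups were taken anew from the other replicate's own list.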

Additional observations from a re-analysis of the deposited data

How the results depend on the processing

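Of 105 alternative values of 18 results, 84 kept the call: 69 of 85 tested values kept direction and side of the threshold, and 15 of 20 counts stayed within 1.5 times the reported one. Ratios below are the class over the other group, with adjusted p from Fisher's exact test. The upper ranks of the class, above its middle, gave by Fisher's exact test against the optimal list 1.01 for intergenic summits (reversed, adjusted p = 0.897), 1.53 for coding exons (0.38) and 0.853 for CACGCG (0.48), and against the next class 1.67 for CACGTG (0.00745); it reached 345 genes, 319 of them new. CACGTG against the next class also passed over 1000 bp from optimal summits (1.41, 0.0475) and with 100 bp motif windows (1.38, 0.0167). CACGCG against the optimal list fell short with 25 bp windows (0.754, 0.281), and promoter windows against the next class with 2000 bp upstream and 500 bp downstream (1.07, 0.079). Leaving out a replicate gave, against the optimal list by Fisher's exact test, 0.876 to 0.926 for intergenic summits (now passing) and 0.878 (without replicate 1, adjusted p = 0.019) to 0.938 (without replicate 2) for promoter windows, both reversed. Against the next class it gave 1.07 (without replicate 1, not passing) to 1.11 for intergenic summits, 1.07 for promoter windows in either list (not passing) and 1.70 (without replicate 1, not passing) to 2.06 for CACGCG. Members in the top of both replicates numbered 101 with summits within 100 bp, 36 with the shorter top and 634 with a top 4 times the optimal list. The causes were not tested. No paired analysis was possible because there was a single group. Unknown depth and 2 libraries limit how far any single member can be told from background, and missing signal in 1 replicate cannot be read as absence of binding.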
